A study of Mus musculus with 8 samples.

Results

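The VEGF ligands and receptors were examined in mouse macrophages exposed to IL-6, with or without targeted deletion of the alpha chain of its receptor. The family was taken as 7 genes, the ligands Vegfa, Vegfb, Vegfc and Pgf and the receptors Flt1, Kdr and Flt4, of 19938 genes measured. Each of the 7 was measured by 1 probe set (a group of array probes summed to 1 value) annotated to that gene alone, so all 7 were found and none was filtered out. The family was chosen by 1 measured value, the higher Vegfa signal of the cells with the deletion, so the Vegfa difference is given as a description with no test. The tests below concern the other 6 members.

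RNA came from macrophages grown from bone marrow in M-CSF (10 ng/ml) for 10 days, starved of serum overnight and then kept for 4 h with IL-6 at 50 ng/ml. The IL6raKO group held 4 arrays from IL6ralpha flox/flox mice with 1 LysMCre allele (tg/wt), a Cre recombinase driven by the lysozyme M promoter of myeloid cells. The Ctrl group held 4 arrays from IL6ralpha flox/flox mice with no Cre named in their labels. Both groups carried the loxP-flanked receptor gene and both received IL-6, so no array shows unstimulated cells, and Cre and loss of the receptor cannot be told apart. Age and sex were not given, and the labels call the arrays biological replicates without tying each to its own mouse; the p-values therefore reflect the spread among these 8 samples alone.

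Vascular endothelial growth factors are secreted dimers of the cystine-knot fold that bind receptor tyrosine kinases on blood and lymphatic endothelium. VEGF-A drives the growth and permeability of blood vessels mainly through the receptor encoded by Kdr, and Flt1 binds VEGF-A, VEGF-B and placental growth factor and in part acts as a decoy. VEGF-C acts on lymphatic vessels through the receptor encoded by Flt4. Macrophages are a known source of VEGF-A, whose gene responds to hypoxia, and monocytes and macrophages carry Flt1, through which they migrate.

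Values are log2 expression as deposited, on which 1 unit is a doubling, and a difference is always IL6raKO minus Ctrl. Il6ra, the targeted gene, averaged 7.92 ± 0.14 in IL6raKO and 8.42 ± 0.02 in Ctrl (SD, n = 4 each), and no IL6raKO array reached a Ctrl array. IL6raKO was at 70.6% of the Ctrl level of Il6ra, with a limma adjusted p of 0.0607 over all genes. The position of its probes relative to the deleted exons was not examined. How complete the deletion was therefore cannot be read from this value. Ctrl replicate 4 stood apart from the other arrays, at 21.5 on a leading principal component on which they lay between -6.60 and 4.82, and the Vegfa difference was 0.36 both with and without that array. The macrophage markers Csf1r, Cd68, Adgre1 and 6 others were among the brightest probe sets, between percentiles 87.6 and 100 of mean expression, and 0 of these 9 were called. Of all 19938 genes, 6 (0.0301%) were called at an adjusted p under 0.05 in limma, all 6 lower in IL6raKO, and 0 were called higher. At an unadjusted p under 0.05, 1452 genes (7.28%) differed. The groups did not overlap for 4.44% of genes, with the IL6raKO arrays all above the Ctrl arrays for 2.07% and all below for 2.37%.

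Vegfa, the ligand that gave the family its place here, was higher in every IL6raKO array than in every Ctrl array. Its log2 expression was 9.23, 9.28, 9.42 and 9.18 in IL6raKO replicates 1 to 4, against 8.93, 8.89, 8.95 and 8.91 in Ctrl replicates 1 to 4. The Ctrl arrays were tightly grouped, while the IL6raKO arrays spread more widely, with replicate 3 the highest and replicate 4 the lowest. The means were 9.28 ± 0.10 in IL6raKO and 8.92 ± 0.02 in Ctrl (SD, n = 4 each), a difference of 0.36 (SE 0.07) that puts IL6raKO at 128% of the Ctrl level. A gap of 0.23 separated the lowest IL6raKO array from the highest Ctrl array. Among all genes, 35 (0.176%) had a positive difference at least as large and 65 a negative one at least as large. Vegfa was not among the 6 genes called over all genes. It was among the 22 called with the trended and robust variance model, and was called in no other alternative. As Vegfa was chosen for its value, neither outcome counts as a test. These statements describe the value for which the family was chosen and support nothing further. In array data from whole cultures, more cells of a kind that expresses Vegfa and more of its RNA per cell cannot be told apart.

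**Figure D1:**
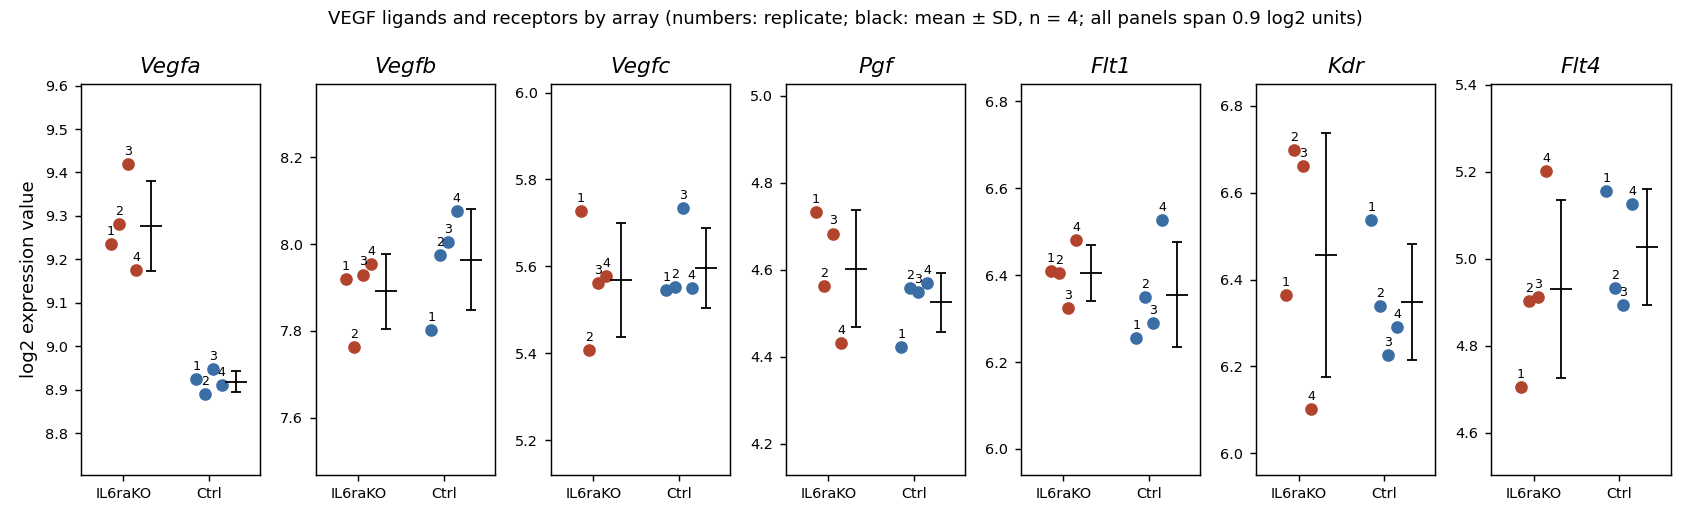
Log2 expression of each VEGF ligand and receptor on every array, with IL6raKO in red and Ctrl in blue, the replicate number above each point and the mean ± SD (n = 4) in black; every panel spans the same range of the log2 axis. For Vegfa the IL6raKO arrays (9.18 to 9.42) lie above the Ctrl arrays (8.89 to 8.95), and for the other 6 genes the groups overlap.

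The groups separated for Vegfa and overlapped for all the other ligands. The region just upstream of the gene start is shown for Vegfa and for Vegfb, the brightest of those others. Both are the 250 bases before the start in RefSeq (GRCm38.p6), written 5′ to 3′ along the gene, with GC boxes (GGGCGG on either strand, a motif bound by Sp1) in capitals.
Vegfa, chr17:46032378-46032627, minus strand: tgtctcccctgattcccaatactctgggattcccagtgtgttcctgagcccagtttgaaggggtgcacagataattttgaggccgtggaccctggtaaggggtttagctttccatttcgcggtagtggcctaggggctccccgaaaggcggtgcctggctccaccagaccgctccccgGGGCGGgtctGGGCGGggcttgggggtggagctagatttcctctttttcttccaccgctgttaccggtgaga
Vegfb, chr19:6987652-6987901, minus strand: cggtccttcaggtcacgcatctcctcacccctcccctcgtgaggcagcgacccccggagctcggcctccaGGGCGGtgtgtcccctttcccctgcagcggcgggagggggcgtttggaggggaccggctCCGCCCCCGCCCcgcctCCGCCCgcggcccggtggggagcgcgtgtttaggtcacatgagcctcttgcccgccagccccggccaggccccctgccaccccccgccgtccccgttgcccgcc

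The Vegfa stretch holds 2 GC boxes, whose first bases lie at -72 and -62 from the start, and the Vegfb stretch holds 4. All 7 members had at least 1 promoter window in RefSeq (250 bases before to 50 after a start), 9 windows in all because Vegfa and Pgf have 2 starts each. A GC box was found in 8 of the 9 windows, against 35.7% of the 32851 windows of all genes. The 9 windows were rich in G and C (59.3% to 75.3% of bases), and the share among windows of like composition was not computed. The hypoxia response core ACGTG, the letters that HIF binds, was found in 1 of the 9, against 19.6% of all windows. That match was at the second Vegfa start, whose upstream stretch (chr17:46025164-46025413, minus strand) lies downstream of the first start along the gene. The match thus lies inside the gene as read from the first start. Whether it falls in coding sequence was not examined. The window at the first Vegfa start, shown above, held 0. Use of the second start in these cells was not examined. Neither the STAT motif TTCNNNGAA (8.3% of all windows) nor the AP-1 motif TGANTCA (7.81%) was found in any of the 9. All searches covered both strands, no matches of different motifs overlapped in these windows, and a match or its lack describes only the letters in a window of this length.

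The other 3 ligands did not pass the test in either direction. Of the 6 members other than Vegfa, 0 were called at an adjusted p under 0.05 in limma, beside 0.0301% of all genes. At an unadjusted p under 0.05, 0 of the 6 differed, beside 7.28% of all genes. Their groups overlapped for 6 of 6, where 4.44% of all genes had groups that did not overlap.

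Vegfb, which signals through Flt1 and is known for roles in heart and fat tissue, was at 7.92, 7.76, 7.93 and 7.95 in IL6raKO replicates 1 to 4, against 7.80, 7.97, 8.00 and 8.08 in Ctrl replicates 1 to 4. Low values occurred in both groups, in IL6raKO replicate 2 and in Ctrl replicate 1, and the difference was -0.07 (SE 0.07, 95% confidence interval -0.24 to 0.09, limma adjusted p = 0.855). With 1 array left out the difference lay between -0.13 (without Ctrl replicate 1) and -0.03 (without IL6raKO replicate 2), and it was -0.04 without Ctrl replicate 4, none of them called.

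Vegfc, the lymphatic growth factor, was at 5.73, 5.41, 5.56 and 5.58 in IL6raKO, against 5.55, 5.55, 5.73 and 5.55 in Ctrl. Each group held 1 array near 5.73, and the Ctrl arrays other than replicate 3 were nearly identical. Its difference of -0.03 (SE 0.08, 95% confidence interval -0.20 to 0.14, limma adjusted p = 0.959) had no stable sign, being 0.026 without IL6raKO replicate 2, 0.019 without Ctrl replicate 3 and 0.014 after quantile normalization was applied again.

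Pgf encodes placental growth factor, a ligand of Flt1 and not of Kdr. Expression was 4.73, 4.56, 4.68 and 4.43 in IL6raKO and 4.42, 4.56, 4.55 and 4.57 in Ctrl. Its probe set was dim, at percentile 11.7 of mean expression, where RMA values compress differences. IL6raKO replicates 1 and 3 were above all Ctrl arrays while replicates 2 and 4 were not, and the difference was 0.08 (SE 0.08, 95% confidence interval -0.09 to 0.25, limma adjusted p = 0.847). It was 0.03 without IL6raKO replicate 1, 0.05 without IL6raKO replicate 3, 0.04 without Ctrl replicate 1 and 0.13 without IL6raKO replicate 4, none of them called.

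The 3 receptors likewise gave 0 calls, and their groups overlapped. Flt1, the receptor known on monocytes and macrophages, was at 6.41, 6.41, 6.32 and 6.48 in IL6raKO, against 6.26, 6.35, 6.29 and 6.53 in Ctrl. The highest array was Ctrl replicate 4, while the other 3 Ctrl arrays were below 3 of the 4 IL6raKO arrays. The difference of Flt1 was 0.05 (SE 0.07, 95% confidence interval -0.11 to 0.21, limma adjusted p = 0.906). With 1 array left out it was 0.11 without Ctrl replicate 4, 0.08 without IL6raKO replicate 3, 0.03 without Ctrl replicate 3, 0.02 without IL6raKO replicate 4 and 0.02 without Ctrl replicate 1, none of them called. The probe set does not separate the soluble decoy from the membrane form of Flt1.

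Kdr, the main signalling receptor of VEGF-A on endothelium, had the largest SE of the 7 genes. Its values were 6.36, 6.70, 6.66 and 6.10 in IL6raKO and 6.54, 6.34, 6.23 and 6.29 in Ctrl. The IL6raKO arrays thus held both the highest and the lowest values, with an SD of 0.28 against 0.13 in Ctrl. The difference was 0.11 (SE 0.12, 95% confidence interval -0.16 to 0.38, limma adjusted p = 0.871). It was 0.23 without IL6raKO replicate 4, 0.17 without Ctrl replicate 1, 0.03 without IL6raKO replicate 2, 0.04 without IL6raKO replicate 3 and 0.07 without Ctrl replicate 3, none of them called.

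Flt4, the receptor of VEGF-C, was at 4.70, 4.90, 4.91 and 5.20 in IL6raKO and 5.16, 4.93, 4.89 and 5.13 in Ctrl. IL6raKO replicate 1 was the lowest array and IL6raKO replicate 4 the highest, so the IL6raKO range enclosed the Ctrl range. The difference was -0.10 (SE 0.10, 95% confidence interval -0.32 to 0.13, limma adjusted p = 0.860), from a dim probe set at percentile 17.6 of mean expression. It was -0.19 without IL6raKO replicate 4, -0.02 without IL6raKO replicate 1, -0.05 without Ctrl replicate 1 and -0.06 without Ctrl replicate 4, none of them called.

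The differences of the 6 tested members lay between -0.10 and 0.11, with a median of 0.01, beside a median of -0.01 over all genes. All 6 confidence intervals held 0. For 5 of the 6 the interval ended below 0.36, the difference seen for Vegfa, and that of Kdr ended at 0.38. Differences between members were not tested, since Vegfa had been chosen for its value. A p that misses the threshold does not show equal levels, and the intervals give the size of any difference in array values. For Vegfb, for example, anything above 0.09 lay outside the interval. Vegfc, Pgf and Flt4 were dim, at percentiles 29.7, 11.7 and 17.6 of mean expression, and Flt1 and Kdr were at 48.9 and 49.3, against 87.9 for Vegfa. RMA values compress differences in dim probe sets, so the intervals of the dim genes do not bound the difference in RNA.

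**Figure D2:**
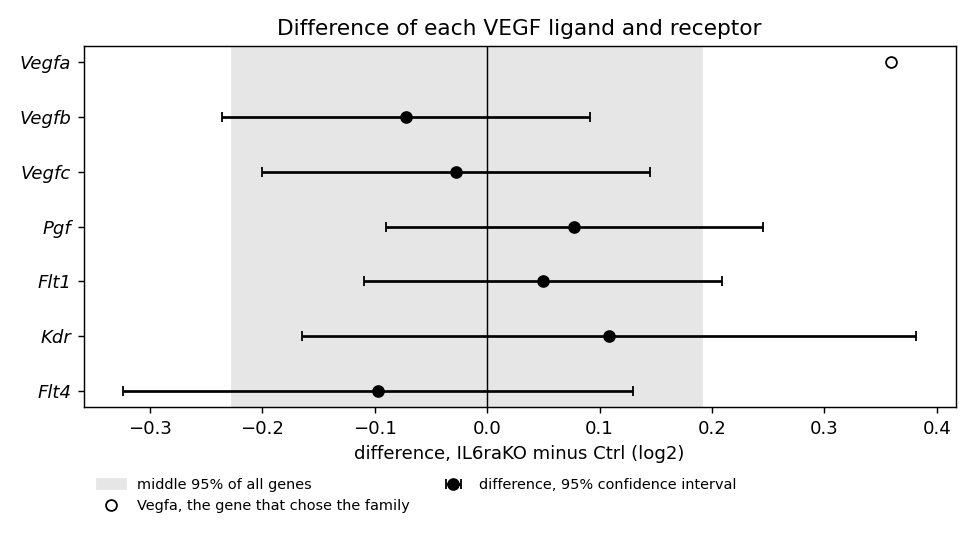
Difference in log2 expression (IL6raKO minus Ctrl) of each VEGF ligand and receptor, with the 95% confidence interval from limma for the 6 tested genes (filled points) and no interval for Vegfa (open point), over a grey band that holds the middle 95% of all genes (-0.23 to 0.19). All 6 intervals cross 0, and Vegfa lies at 0.36, outside the band.

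Endothelial cells are the cells in which Kdr, Flt1 and Flt4 are best known, and their markers were examined beside the receptors. The probe sets of 12 endothelial markers lay between percentiles 8.48 and 74.3 of mean expression with a median of 33.1, and Vwf was the brightest of them. Cdh5, the endothelial cadherin, averaged 5.75 ± 0.13 in IL6raKO and 5.77 ± 0.13 in Ctrl (SD, n = 4 each). None of the 12 (0 of 12) was called, beside 0.0301% of all genes. At an unadjusted p under 0.05 in limma, 1 of the 12 (8.33%) differed, beside 7.28% of all genes. The mean level of the list was between 5.65 and 5.70 in the IL6raKO arrays and between 5.63 and 5.72 in the Ctrl arrays. Array values have a background above 0, so no marker can be read as absent from them.

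Mast cells and basophils also make VEGF-A, and their markers varied from array to array in these cultures. The mean level of 10 markers was between 5.82 and 6.33 in IL6raKO arrays and between 6.03 and 6.55 in Ctrl arrays. Of the 10, 0 were called, beside 0.0301% of all genes. Their differences were positive for 1 (10%) and negative for 9, beside 45.8% positive over all genes. The highest Vegfa value, in IL6raKO replicate 3, went with a marker level of 6.11, and the highest marker level, in Ctrl replicate 4, with a Vegfa value of 8.91. Stromal markers (10 genes) were between 5.68 and 5.85 in IL6raKO arrays and between 5.73 and 5.88 in Ctrl arrays. Markers of neutrophils and their precursors (11 genes) were between 5.71 and 6.10 in IL6raKO arrays and between 5.86 and 6.18 in Ctrl arrays. In either list 0 were called, beside 0.0301% of all genes. At an unadjusted p under 0.05 in limma, 1 stromal marker (10%) and 1 neutrophil marker (9.09%) differed, beside 7.28% of all genes. The part of such cells in the Vegfa difference was not tested.

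The co-receptors and the signalling proteins below the VEGF receptors showed no called difference. Of 30 genes listed, 25 were measured and 0 were called in either direction, beside 0.0301% of all genes. None of the 25 (0 of 25) had an unadjusted p under 0.05, against 7.28% of all genes. Their differences lay between -0.10 and 0.10, with a median of -0.02 beside -0.01 over all genes. The lowest p-values belonged to Vegfd, the second lymphatic ligand, with a difference of -0.10 (SE 0.07), the adaptor Shb with -0.08 (SE 0.07) and Pik3r1, a regulatory subunit of PI3-kinase, with 0.10 (SE 0.08), and the smallest limma adjusted p among the 25 was 0.787.

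The neuropilins are given as the known co-receptors of VEGF-A and VEGF-C and were named outside the rule of lowest p. Nrp1 averaged 10.93 ± 0.07 in IL6raKO and 10.87 ± 0.14 in Ctrl (SD, n = 4 each), a difference of 0.06 (95% confidence interval -0.11 to 0.23). Nrp2 averaged 9.79 ± 0.03 in IL6raKO and 9.86 ± 0.03 in Ctrl (SD, n = 4 each), with each IL6raKO array below each Ctrl array, differing by -0.06 (limma adjusted p = 0.832, 95% confidence interval -0.18 to 0.06). That separation was narrow: the highest IL6raKO array was at 9.82 and the lowest Ctrl array at 9.83. Nrp2 was the 1 gene of the 25 whose groups did not overlap, beside 4.44% of all genes.

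Proteins that cleave, bind or release VEGF outside the cell gave 0 calls among 18 measured genes, beside 0.0301% of all genes, with a median difference of 0.00. At an unadjusted p under 0.05 in limma, 1 of the 18 (5.56%) differed, beside 7.28% of all genes. All IL6raKO arrays lay above all Ctrl arrays for 1 gene and below for 0, beside 2.07% and 2.37% of all genes. Plau, the urokinase plasminogen activator that can release matrix-bound VEGF through plasmin, was 0.43 higher (SE 0.07, limma adjusted p = 0.078), with all 4 IL6raKO arrays (9.26 to 9.47) above all 4 Ctrl arrays (8.84 to 8.98). It was called with the trended and robust variance model (adjusted p = 0.00762) and among genes above the median level (adjusted p = 0.0172). Thrombospondin 1 (Thbs1), a matrix protein that binds VEGF and restrains angiogenesis, differed by 0.19 (SE 0.10, adjusted p = 0.717), and the gelatinase Mmp9 by -0.15 (SE 0.10, adjusted p = 0.768). The groups overlapped for Thbs1 and Mmp9. Single arrays moved both. Thbs1 was at 0.10 without Ctrl replicate 4, 0.11 without IL6raKO replicate 3 and 0.26 without Ctrl replicate 3. Mmp9 was at -0.05 without Ctrl replicate 3 and -0.24 without Ctrl replicate 1.

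Hypoxia is the best known inducer of Vegfa, and other genes induced by it are a natural comparison. Among 25 measured HIF hydroxylases and hypoxia-induced genes 0 were called, beside 0.0301% of all genes, and the median was -0.02. Their differences were negative for 15 and positive for 10 (40%), beside 45.8% positive over all genes. At an unadjusted p under 0.05 in limma, 2 of the 25 (8%) differed, beside 7.28% of all genes. All IL6raKO arrays lay above all Ctrl arrays for 1 gene and below for 2, beside 2.07% and 2.37% of all genes. A part of hypoxia in the Vegfa difference was not tested. Lactate dehydrogenase A (Ldha) averaged 10.97 ± 0.07 in IL6raKO and 11.17 ± 0.16 in Ctrl (SD, n = 4 each), a difference of -0.20 (limma adjusted p = 0.669). For Bnip3, a mitophagy receptor induced by HIF, the means were 8.67 ± 0.11 in IL6raKO and 8.86 ± 0.01 in Ctrl (SD, n = 4 each), with every IL6raKO array below every Ctrl array and a difference of -0.18 (adjusted p = 0.647). That is the brighter of 2 Bnip3 probe sets, and their mean differed by -0.098. The collagen prolyl hydroxylase P4ha1 differed by 0.10 (adjusted p = 0.726), with every IL6raKO array above every Ctrl array.

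Among 20 measured regulators of Vegfa transcription and mRNA stability, 1 was called, lower, beside 0.0301% of all genes. At an unadjusted p under 0.05 in limma, 4 of the 20 (20%) differed, beside 7.28% of all genes. All IL6raKO arrays lay above all Ctrl arrays for 2 genes and below for 2, beside 2.07% and 2.37% of all genes. Like the other lists, this one was chosen with earlier results of these data known. Its shares therefore say nothing of Vegfa regulators as a class. These shares were not tested. Stat3, the transcription factor of the IL-6 receptor, fell by 0.57 (SE 0.07, limma adjusted p = 0.0348), with 9.09 to 9.33 in the IL6raKO arrays and 9.68 to 9.82 in the Ctrl arrays. The call was lost without any 1 of the 8 arrays (adjusted p between 0.0771 and 0.166), while the difference lay between -0.62 and -0.54 in those fits. The AP-1 subunits Fos and Jun were higher by 0.30 (SE 0.07, adjusted p = 0.477) and 0.21 (SE 0.07, adjusted p = 0.616), without passing the test, and for both the groups did not overlap. Hif1a, the oxygen-regulated subunit of HIF, named as a known regulator outside the rule of lowest p, differed by -0.12 (95% confidence interval -0.30 to 0.05), and its partner Arnt by 0.07 (95% confidence interval -0.08 to 0.22). The median of the list was 0.04, and 14 of its 20 differences were positive (70%), beside 45.8% of all genes.

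Other angiogenic growth factors and their receptors gave 0 calls among 21 measured genes, beside 0.0301% of all genes, with a median difference of -0.01. At an unadjusted p under 0.05 in limma, 3 of the 21 (14.3%) differed, beside 7.28% of all genes. All IL6raKO arrays lay above all Ctrl arrays for 1 gene and below for 2, beside 2.07% and 2.37% of all genes. These shares were not tested. Met, the receptor of hepatocyte growth factor, was between 8.94 and 9.47 in the IL6raKO arrays, against 8.52 to 8.93 in the Ctrl arrays. The groups did not overlap, by a margin smaller than the SD of either (0.24 in IL6raKO, 0.18 in Ctrl), and the difference was 0.40 (SE 0.12, limma adjusted p = 0.569). Tgfa, a ligand of the EGF receptor, differed by -0.24 (SE 0.08, adjusted p = 0.608) and Aplnr, the apelin receptor, by -0.17 (SE 0.07, adjusted p = 0.669), with every IL6raKO array below every Ctrl array for both. The endothelial kinases Tek and Tie1, which are also on the endothelial list, differed by 0.06 and -0.05.

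**Figure D3:**
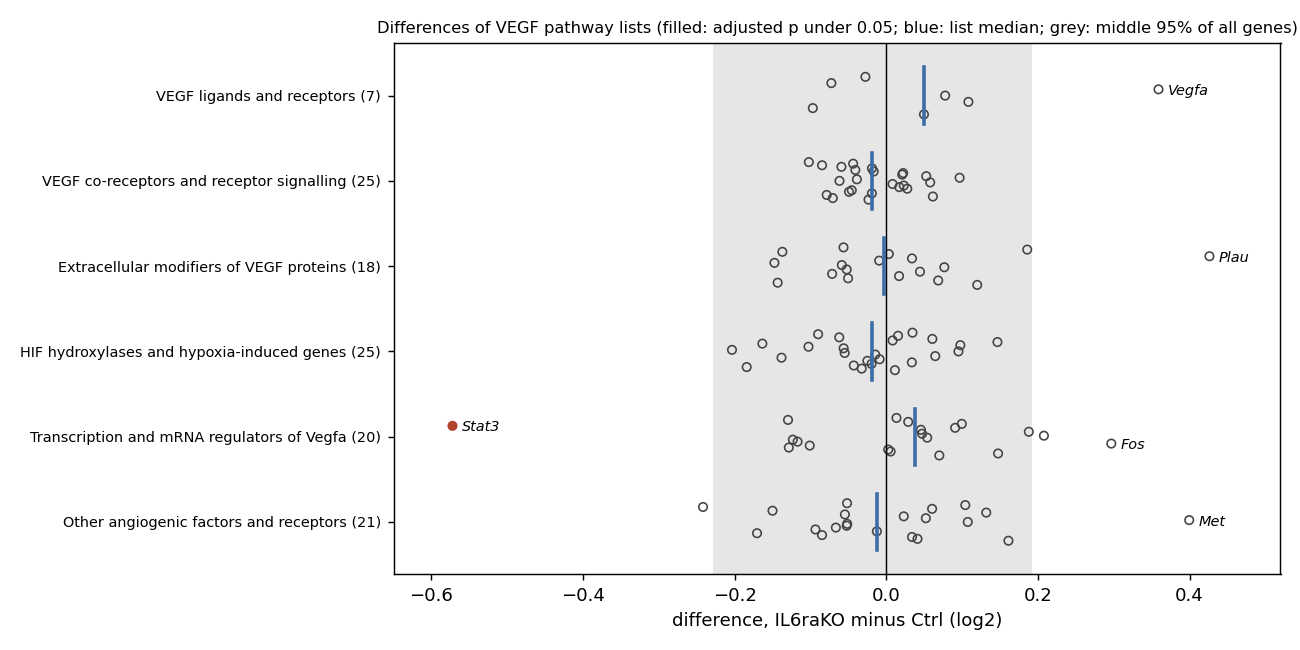
Difference in log2 expression (IL6raKO minus Ctrl) of every measured gene of the VEGF family and of 5 lists around it, with the number of measured genes in brackets, blue bars at list medians and a grey band for the middle 95% of all genes (-0.23 to 0.19). Stat3 (-0.57) is the 1 filled point, called at an adjusted p under 0.05, and Vegfa (0.36), Plau (0.43), Met (0.40) and Fos (0.30) lie to the right of the band.

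The genes whose array-to-array pattern was most like that of Vegfa were found from deviations of each array from its genotype mean, so that the genotype difference played no part. Among 9484 named genes above the median level, the 5 highest Pearson correlations over the 8 arrays were those of Rbm22, a splicing factor (r = 0.973, Spearman 0.976), Fpgt (r = 0.969, Spearman 0.881), the semaphorin Sema4b (r = 0.969, Spearman 0.929), Uaca (r = 0.964, Spearman 0.929) and Cars, the cysteinyl-tRNA synthetase (r = 0.960, Spearman 0.738). All 5 were high in IL6raKO replicate 3 and low in IL6raKO replicate 4, as Vegfa was. Without these 2 arrays r was 0.864 for Rbm22, 0.748 for Fpgt, 0.936 for Sema4b, 0.907 for Uaca and 0.588 for Cars. The 8 deviations share each array's RNA and hybridisation, and the best of so many genes over 8 arrays reach high values, so these correlations are a description with no test. The genotype differences of the 5 genes lay between -0.17 for Uaca and 0.19 for Rbm22, and 0 of them were called.

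**Figure D4:**
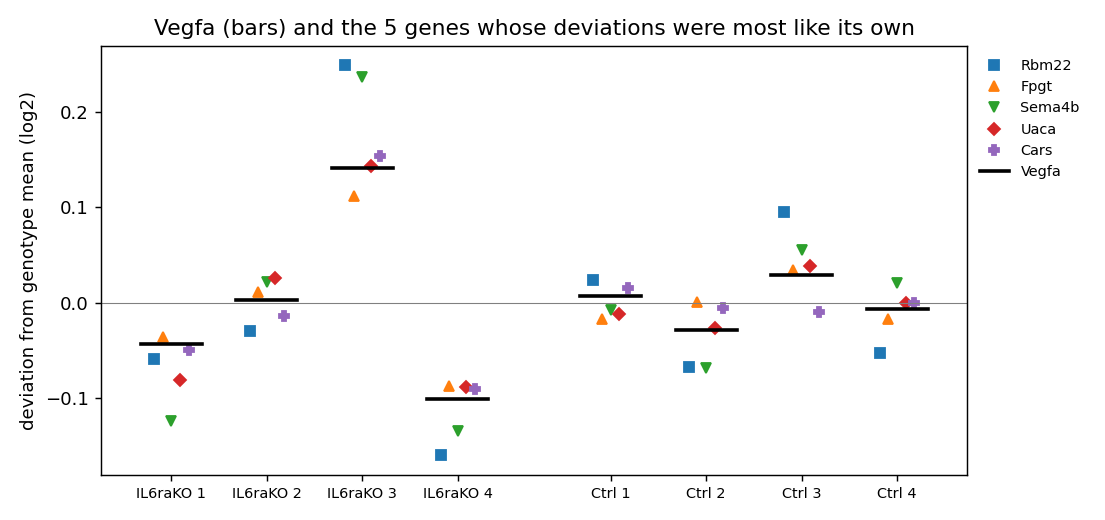
Deviation of log2 expression from the genotype mean on each array for Vegfa (black bars) and for the 5 genes with the highest correlation to it (symbols), with the IL6raKO arrays to the left of the Ctrl arrays. All 6 genes are highest in IL6raKO replicate 3 and lowest in IL6raKO replicate 4 among the IL6raKO arrays, and the deviations span a narrower range in Ctrl.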

How the data were processed

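Total RNA was labelled with biotin by a whole-transcript assay and hybridised to Affymetrix arrays, 1 per sample, per the labels' protocols. The deposited values are log2 expression per probe set (35556 probe sets, 8 arrays). The submitters' processing notes name RMA (background correction, quantile normalization and probe summary) and R 2.13.1; the genome build, other filters and the order of steps were not given in the sources used here. That the scale is log2 was read from the range of the deposited values (1.96 to 14.2) and from RMA being named. The array medians lay between 6.31 and 6.35. The number of arrays limits the precision.

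Probe sets were named through GEO's platform annotation: 21789 had 1 gene symbol, 1621 several and 12146 none. The brightest probe set of each symbol gave 19938 genes. The comparison was fitted on all 8 arrays with limma 3.58.1 (lmFit, eBayes) in R 4.3.3, with Benjamini-Hochberg adjustment over all genes, two-sided, and was tested on simulated data. Of 117 pathway list entries, 109 were measured. The text names the 7 members, Il6ra, up to 3 members of lowest p per pathway list, the 5 genes most like Vegfa, and others where stated; Lyz2 also fell under the rule and stands in the closing section. The members and lists were chosen with earlier results of these data known. Alternatives were a block for the replicate number, another variance model, a filter on dim genes, further normalizations, averaging over probe sets, array weights and leaving out each array. Same-numbered arrays did not deviate together (correlations between -0.01 and 0.04), so the numbers were not used as pairs.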

Additional observations from a re-analysis of the deposited data

Results flagged for a closer look

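For the 29 named genes, the 4 values of each genotype (58 sets) were searched for an array that stood apart; 2 sets held one, and chance would flag about 1 in 20 sets, or 2.9. In Ctrl, Vegfc was at 5.73 in replicate 3, with the remaining Ctrl arrays at 5.55 each. Pgf in Ctrl was at 4.42 in replicate 1, with the remaining Ctrl arrays at 4.55 to 4.57.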

How the results depend on the processing

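Among the 6 VEGF members other than Vegfa 0 were called with the settings of the report and in 14 alternatives; among genes above the median level only Vegfb of the 6 was tested, and it was not called. The Vegfa difference stayed between 0.33 and 0.36 in the 7 alternatives that kept all arrays and between 0.31 and 0.39 with 1 array left out. Of the VEGF members Vegfc changed sign, to 0.014 with quantile normalization applied again, and its range with 1 array left out was -0.080 to 0.026. Fpgt changed sign to -0.016 with that normalization and to -0.016 with arrays centred on their 75th percentile, and Sema4b to -0.013 with that centring. With 1 array left out, Fpgt ranged from -0.026 to 0.040 and Sema4b from -0.065 to 0.059. Il6ra, with an adjusted p of 0.0607 over all genes in limma, was called in 4 alternatives. Lyz2 differed by -0.11 (SE 0.07, limma adjusted p = 0.763). The count of called genes was 6, and 22 with the trended and robust variance model, 11 among genes above the median level, 0 with the replicate number as a block (1455 genes at an unadjusted p under 0.05) and 0 to 1 with 1 array left out (1138 to 1790 at an unadjusted p under 0.05). The list of extracellular modifiers went to 1 call (Plau) with the trended and robust variance model and to 1 among genes above the median level. The list of Vegfa regulators went to 0 calls with the replicate block and to 0 in every fit with 1 array left out, which also has fewer samples; its 1 called gene, Stat3, differed by -0.57 with the block (limma adjusted p = 0.161). The cause of the other changes was not tested.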
